A study of Mus musculus with 6 samples.

Results

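In mouse neural stem and progenitor cells kept in water, 789 of 13221 H3K4me3 peaks lay between protein-coding genes. They were the peaks of the water H3K4me3 list that overlapped no protein-coding RefSeq gene span extended by 2 kb on either side, and the other 12432 peaks lay at or within 2 kb of such a gene. The choice used position alone and no measured value. The cells came from the forebrain of mouse embryos at E13.5 and were grown in medium with epidermal and fibroblast growth factors to passage 2 to 3. They were given 10 mM crotonate for 24 h, or water for the same time as the control. The assay was CUT&Tag, where an antibody bound to a histone mark brings a transposase that cuts and tags the DNA around it. The 6 samples were H3K4me3, H3K27me3 and normal rabbit IgG libraries from crotonate-treated cells and the same from water-treated cells. The 2 IgG libraries were not used here. Each mark had a single library per treatment, so differences between treatments carry no replicate error and no test was made. The labels give no strain, no number of embryos and no genetic change. Intervals in the text are exact Clopper-Pearson 95% intervals, which cover counting error only.

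H3K4me3, trimethylation of lysine 4 of histone H3, is deposited at transcription start sites, and unmethylated CpG-rich DNA helps recruit the enzymes that place it. Between protein-coding genes, such starts belong to long noncoding RNA (lncRNA) genes, to the primary transcripts of microRNAs, and to genes that RNA polymerase III reads, such as tRNA genes. H3K27me3 is the mark of Polycomb repressive complex 2 and covers silent developmental genes, and regions that carry both marks are known from stem cells as bivalent. Crotonate is a short-chain acid from which cells make crotonyl-CoA, the substrate for crotonylation of histone lysines.

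The peak lists held 16007 H3K4me3 peaks after crotonate and 13221 in water, covering 29.4 Mb and 21.4 Mb, and 15879 H3K27me3 peaks after crotonate and 7643 in water. Fragment totals are not stated in the lists, so the depth is unknown, and the number and length of called peaks depend on it. The label of the cells was checked on marker genes. Each of 8 neural stem and progenitor genes, among them Sox2, Nes and Pax6, had an H3K4me3 peak within 2 kb after crotonate and in water. None of the 3 microglial, 2 astrocytic and 2 erythroid markers had one in either list. The 3 neuronal markers were marked in both lists, as was the endothelial gene Kdr. The fibroblast markers had 2 of 3 genes marked after crotonate and 1 of 3 in water, and the oligodendrocyte markers 1 of 2 after crotonate and 0 of 2 in water. Whether other cell types added peaks to those described here was not tested.

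The 3 longest of these peaks lay at the loci of the 3 genes of the microRNA miR-9, and 28 of them lay within 2 kb of microRNA genes. MicroRNAs are short RNAs that guide the silencing of messenger RNAs through the seed, bases 2 to 8. miR-9 and miR-124 are abundant in the nervous system and promote neuronal differentiation. Of the 37 microRNA genes within 2 kb of a peak, 33 had a mature sequence in the RefSeq table. The sequences below (GRCm38.p6) are those of the genes whose peaks are described next, 5′ to 3′ with the seed in capitals.
miR-9-5p: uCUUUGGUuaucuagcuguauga
miR-9-3p: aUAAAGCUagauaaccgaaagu
miR-125b-5p: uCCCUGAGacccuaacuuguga
miR-22-3p: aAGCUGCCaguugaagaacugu
miR-137-3p: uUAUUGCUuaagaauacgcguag
miR-17-5p: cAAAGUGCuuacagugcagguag
miR-20a-5p: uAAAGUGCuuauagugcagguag
miR-19a-3p: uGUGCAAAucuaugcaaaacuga
miR-19b-3p: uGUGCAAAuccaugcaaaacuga
miR-129-2-3p: aAGCCCUUaccccaaaaagcau
miR-193a-3p: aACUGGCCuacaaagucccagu
miR-193b-3p: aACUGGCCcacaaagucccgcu
Mir9-1, Mir9-2 and Mir9-3 lie on chromosomes 3, 13 and 7 and encode the same miR-9-5p and miR-9-3p. Mir125b-1 on chromosome 9 and Mir125b-2 on chromosome 16 likewise encode the same miR-125b-5p. Within the miR-17 cluster of chromosome 14, miR-17-5p and miR-20a-5p share 1 seed and miR-19a-3p and miR-19b-3p share another, and miR-193a-3p and miR-193b-3p share a seed across chromosomes 11 and 16.

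Each of the 3 Mir9 loci carried an H3K4me3 domain over 10 kb long, and in water these were 3 of the 7 peaks of that length in the whole list. At Mir9-2, 1 peak covered 29.3 kb after crotonate, where water had 3 peaks of 23.8, 3.95 and 0.426 kb. The first of these, chr13:83712925-83736681, was the longest of the water list and held the annotated starts of the lncRNA genes C130071C03Rik and Gm52046, 45.8 kb from Mef2c, a transcription factor gene of neurons and muscle. Mir9-2, inside C130071C03Rik, lay in the next, chr13:83737059-83741011. At Mir9-1, 1 peak covered 23.8 kb after crotonate, where water had peaks of 16.96 and 4.87 kb. The longer of them, chr3:88204867-88221824, ranked 2 by length in the water list and held an annotated start of the lncRNA gene Gm3764. The shorter lay at the lncRNA gene AW047730. At Mir9-3, 1 peak covered 16.1 kb after crotonate, where water had peaks of 11.4 and 0.583 kb. The longer, chr7:79498968-79510360, ranked 6 and held the start of the host gene Mir9-3hg. The longest call of each locus was thus longer after crotonate than in water, and each included a join across a gap. At Mir9-2 the outer ends hardly moved. By distance from the middle of the longest water peak they were -12.031 and 17.234 kb after crotonate, against -11.878 and 17.182 kb in water. The right ends at Mir9-1 and Mir9-3 were 9.935 and 7.501 kb after crotonate, against 8.479 and 5.696 kb in water. A smaller peak within Mir9-3hg, chr7:79512681-79513192, had the highest length ratio of the paired peaks, with 4.35 kb after crotonate and 0.512 kb in water, a ratio of 8.49.

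**Figure D1:**
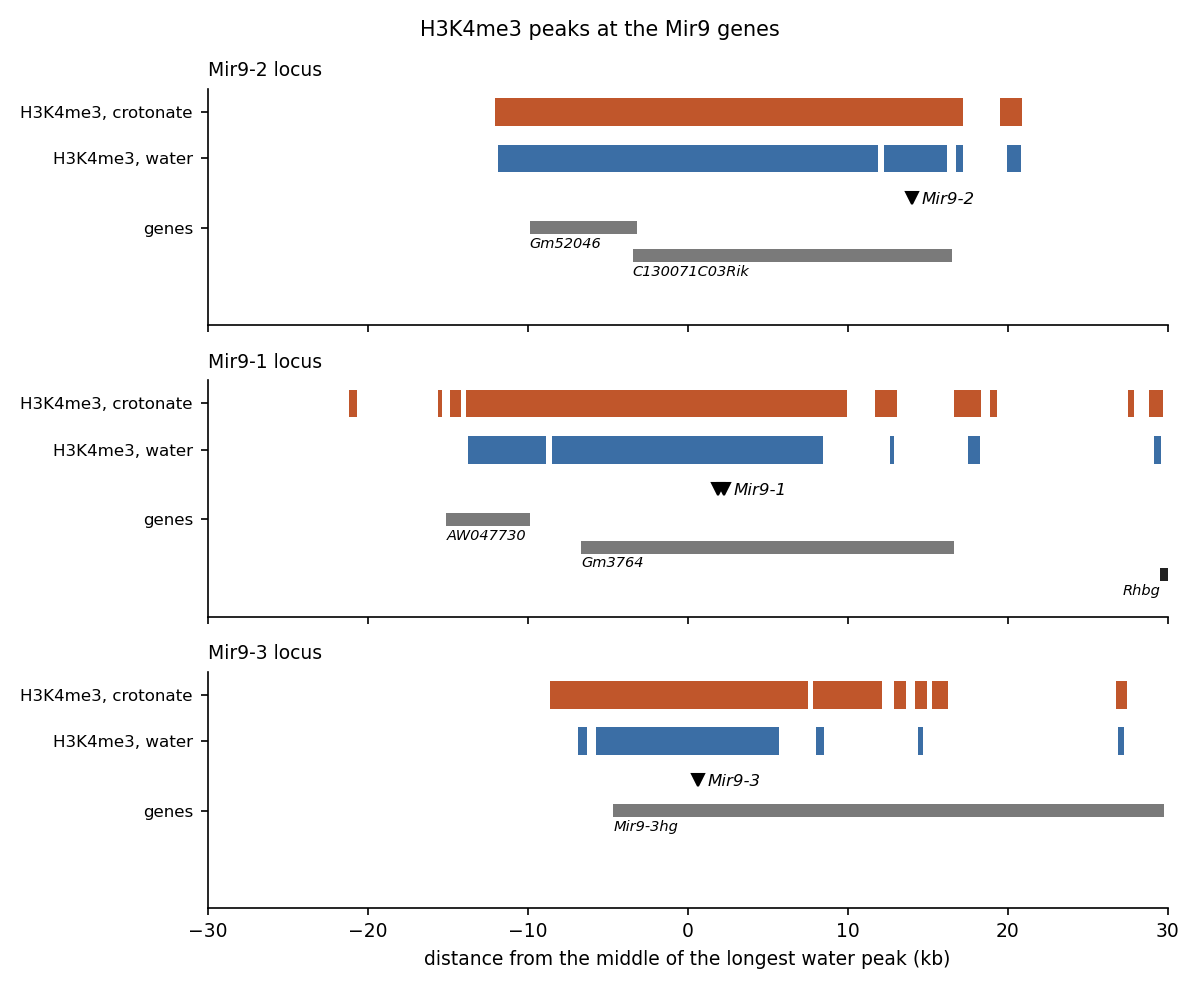
H3K4me3 peaks after crotonate (orange) and in water (blue) at the Mir9-2, Mir9-1 and Mir9-3 loci, by distance in kb from the middle of the longest water peak of each locus. Triangles mark microRNA genes, grey bars lncRNA genes and the black bar the protein-coding gene Rhbg, and at each locus 1 crotonate peak spans more than 1 water peak (29.3, 23.8 and 16.1 kb long).

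The other microRNA genes carried shorter peaks. Mir125b-1, inside the lncRNA gene Mir100hg and 322 kb from the nearest protein-coding gene, lay in a peak of 5.08 kb after crotonate and 4.96 kb in water (chr9:41579536-41584490). Its copy Mir125b-2 lay within 2 kb of a weak peak of 0.553 kb after crotonate and 0.352 kb in water, with a −log10 q of 1.4965 in water, near the q of 0.05 that bounds the lists. The peak at Mir22 and the start of its host gene Mir22hg covered 3.28 kb after crotonate and 2.41 kb in water. Mir760, which shares its peak with the arginine tRNA gene n-TRtct2, had 3.14 kb after crotonate and 2.83 kb in water. At the miR-17 cluster, a driver of proliferation, 1 peak of 3.16 kb lay upstream of Mir17 after crotonate, and 2 peaks of 1.48 and 0.925 kb lay there in water. Each of the 28 peaks near microRNA genes was found after crotonate, against 99.3% of all water peaks. Of the 18 with a single partner 17 (94.4%) were wider after crotonate, against 94.5% of all paired water peaks. Both shares were thus close to those of the whole list. Seen from the genes, 46 of 343 microRNA genes outside the protein-coding windows had an H3K4me3 peak within 2 kb after crotonate and 40 of 343 in water. Of the listed microRNA genes outside the windows, 21 of 45 were marked in water, and Mir99a was marked after crotonate but not in water.

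H3K27me3 lay under a larger share of the microRNA peaks than of the peaks between genes as a whole. It was called at 8 of 28 (28.6%, 13.2 to 48.7) in either list, though not at the same 8. Across the 789 peaks the shares were 60 (7.60%, 5.85 to 9.68) after crotonate and 57 (7.22%, 5.52 to 9.26) in water. Over all 13221 water H3K4me3 peaks they were 7.56% after crotonate and 6.88% in water, so the share between genes lay within counting error of the list as a whole. The 8 microRNA peaks on H3K27me3 in water lay at Mir124a-1, Mir124a-3 and Mir137, which serve neuronal differentiation, and at Mir129-2, Mir203 and the miR-17 cluster. Mir124a-3 and Mir137 had 2 such peaks each, so these peaks are not independent of one another. At Mir137, H3K27me3 overlapped the positions of both water H3K4me3 peaks in water and of neither after crotonate. It lay within 2 kb of the gene in both lists. The 2 H3K4me3 peaks there were 0.718 and 0.915 kb long after crotonate, against 0.434 and 0.510 kb in water. Mir124a-1 had 1 peak of 4.05 kb after crotonate, which took in a weak peak of 0.671 kb in water and a neighbour of it. Mir124a-3 had 1 peak of 2.37 kb after crotonate, against 2 of 1.31 and 0.350 kb in water.

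lncRNA genes were the most frequent neighbours. A noncoding gene or pseudogene lay within 2 kb of 503 of the 789 peaks (63.8%, 60.3 to 67.1), and over all water H3K4me3 peaks the share was 23.2%. A lncRNA gene lay within 2 kb of 369 peaks (46.8%, 43.2 to 50.3), against 18.8% (18.1 to 19.4) of all water peaks. tRNA genes followed with 102 peaks, pseudogenes with 56, microRNA genes with 28, other small RNA genes with 15, snoRNA genes with 11 and snRNA genes with 8, and 83 peaks had genes of more than 1 class. As shares of the 789, pseudogenes had 7.098% (5.41 to 9.12), against 1.73% of all water peaks, and microRNA genes 3.55% (2.37 to 5.09), against 1.41%. Other small RNA genes had 1.90% (1.07 to 3.12), against 0.310%. That class also took in genes of the RefSeq type misc_RNA, some of them long. Platr25 spans 90.2 kb and Gm4983 73.0 kb, so its share is not one of small RNA genes alone. The interval for snoRNA genes, 1.39% (0.698 to 2.48), includes the 0.779% of all water peaks, and that for snRNA genes, 1.01% (0.439 to 1.99), lies just above their 0.401%. The rule keeps these peaks away from protein-coding genes, and its part in the higher share was not tested. An annotated lncRNA start lay inside 140 peaks (17.7%, 15.1 to 20.6), against 9.01% (8.53 to 9.51) of all water peaks. Those 140 peaks had medians of 1300 bp in length and 28.3 in −log10 q, while the 229 that lay near a lncRNA gene without holding a start had medians of 664 bp and 7.91. The summit lay a median of 112 bp downstream of the lncRNA start (quartiles 17 bp upstream and 218 bp downstream) and was downstream for 120 of 166 starts.

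The 10 strongest of the 789 peaks each had a noncoding gene or pseudogene within 2 kb. The highest −log10 q, 113, belonged to chr5:100427232-100430598 at the start of 5430416N02Rik, a lncRNA gene 10.96 kb from Sec31a, a gene of vesicle transport, with 3.57 kb after crotonate and 3.37 kb in water. The next, at B930059L03Rik on chromosome 12, was one of the few that were shorter after crotonate, with 2.03 kb against 2.25 kb in water. Host genes of small nucleolar RNAs release from their introns the guides for chemical modification of ribosomal RNA. Each of the 8 listed host genes outside the protein-coding windows had an H3K4me3 peak in water, and 9 listed genes had 1 of the 789 peaks within 2 kb. At Snhg16, which holds 3 Snord1 genes, the peak covered 2.25 kb after crotonate and 2.08 kb in water. At Dancr, a lncRNA known for keeping progenitors undifferentiated, it covered 1.62 kb after crotonate and 1.45 kb in water. Snhg15, Snhg17, Snhg20 and Snhg5 had 2.64, 2.49, 2.19 and 3.08 kb after crotonate and 2.37, 1.68, 1.57 and 2.57 kb in water. Of the listed lncRNA genes of neural or general function, 21 of 25 outside the windows were marked in water, and Rmst, Lncenc1, Paupar and Miat were not. Over all lncRNA genes outside the windows 311 of 7075 (4.40%) were marked in water. The gene lists were made with earlier results of these data known. Marking was counted over the whole gene span, which is long for some listed genes, such as Pvt1 with 222 kb. Miat had a peak after crotonate and none in water. None of the 3 imprinted noncoding genes outside the windows was marked in either list. Malat1, an abundant nuclear lncRNA, had a peak of 10.4 kb at its start after crotonate, where water had peaks of 7.09 and 1.39 kb.

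The promoters of these lncRNA genes were rich in CpG. The 6 shown are those of the Mir9 loci, of Pantr2, of Dancr and of the strongest peak. Each runs from 250 bases before to 50 bases after an annotated start in RefSeq GRCm38.p6, read on the strand of the gene. For Gm3764 the start shown lies inside the gene span, chr3:88206673-88229959, and not at its end. Capitals mark exact matches on either strand to GGGCGG, a core of SP1 sites, to CCAAT, bound by NF-Y, to CCGGAAG, bound by ETS factors, to TGACGTCA, bound by CREB, to TATAAA, the TATA box, or to GCGCATGC, bound by NRF1.
C130071C03Rik, chr13:83721131-83721430, plus strand: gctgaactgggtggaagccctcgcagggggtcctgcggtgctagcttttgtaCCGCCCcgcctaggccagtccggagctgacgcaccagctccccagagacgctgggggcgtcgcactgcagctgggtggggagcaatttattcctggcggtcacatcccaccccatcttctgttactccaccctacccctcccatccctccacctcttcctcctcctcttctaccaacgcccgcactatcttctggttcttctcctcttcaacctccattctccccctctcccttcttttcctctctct
Gm3764, chr3:88214232-88214531, plus strand: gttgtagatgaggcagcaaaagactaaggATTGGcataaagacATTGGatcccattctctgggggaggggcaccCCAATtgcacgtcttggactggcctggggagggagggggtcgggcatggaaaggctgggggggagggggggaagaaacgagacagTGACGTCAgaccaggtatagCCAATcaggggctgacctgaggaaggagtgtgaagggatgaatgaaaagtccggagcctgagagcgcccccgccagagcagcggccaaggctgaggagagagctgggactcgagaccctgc
Mir9-3hg, chr7:79499776-79500075, plus strand: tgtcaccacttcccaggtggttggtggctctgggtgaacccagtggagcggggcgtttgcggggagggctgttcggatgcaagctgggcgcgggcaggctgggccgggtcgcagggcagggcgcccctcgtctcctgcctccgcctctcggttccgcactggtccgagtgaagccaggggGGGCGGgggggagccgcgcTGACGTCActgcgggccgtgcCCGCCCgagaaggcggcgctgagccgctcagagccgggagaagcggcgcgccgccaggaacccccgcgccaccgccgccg
Pantr2, chr1:42713405-42713704, minus strand: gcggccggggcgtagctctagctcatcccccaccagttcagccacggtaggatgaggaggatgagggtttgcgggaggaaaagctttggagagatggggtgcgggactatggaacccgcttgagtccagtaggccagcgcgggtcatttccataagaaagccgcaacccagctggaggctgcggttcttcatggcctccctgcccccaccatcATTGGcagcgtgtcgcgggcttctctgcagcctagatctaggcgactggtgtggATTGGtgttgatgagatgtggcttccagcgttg
Dancr, chr5:74092810-74093109, plus strand: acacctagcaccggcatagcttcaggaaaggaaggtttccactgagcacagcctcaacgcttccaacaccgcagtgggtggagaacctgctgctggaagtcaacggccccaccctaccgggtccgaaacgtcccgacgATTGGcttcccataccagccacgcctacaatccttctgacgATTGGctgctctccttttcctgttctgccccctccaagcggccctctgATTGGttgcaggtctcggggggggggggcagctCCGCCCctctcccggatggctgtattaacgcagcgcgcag
5430416N02Rik, chr5:100429486-100429785, minus strand: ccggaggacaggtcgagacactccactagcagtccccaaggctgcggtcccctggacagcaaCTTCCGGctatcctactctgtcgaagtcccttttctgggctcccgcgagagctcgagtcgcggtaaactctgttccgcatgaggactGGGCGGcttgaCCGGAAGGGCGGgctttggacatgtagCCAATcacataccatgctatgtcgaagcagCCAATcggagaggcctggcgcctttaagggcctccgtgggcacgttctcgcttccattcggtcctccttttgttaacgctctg
In the Mir9-3hg promoter TGACGTCA stands beside 2 matches to GGGCGG, and in that of 5430416N02Rik one match to CCGGAAG runs into a match to GGGCGG with 1 base shared. Over the 166 promoters of 147 lncRNA genes with the start inside one of the peaks, the median GC share was 56.7% and the median ratio of observed to expected CpG was 0.663. The 6953 other lncRNA promoters outside the protein-coding windows had medians of 46.7% and 0.205. The 10605 protein-coding promoters with the start in a water H3K4me3 peak had medians of 62.7% and 0.810. GGGCGG was present in 55.4% (47.5 to 63.1) of the 166, against 7.85% (7.23 to 8.51) of the other lncRNA promoters and 35.7% of all 32851 promoters in the table. CCGGAAG was present in 12.05% (7.52 to 18.0) against 2.66% (2.30 to 3.07), and TGACGTCA in 4.82% (2.10 to 9.27) against 0.690% (0.509 to 0.914). Over all promoters these shares were 8.86% and 1.79%, the first of which lies inside the interval of the 166. CCAAT did not separate the sets, with 37.3% (29.98 to 45.2) against 37.8% (36.7 to 39.0). TATAAA was found in 10.8% (6.55 to 16.6) of the marked promoters and 17.9% (16.997 to 18.8) of the others. The shares of CCAAT and TATAAA over all promoters, 37.4% and 13.6%, lie inside the intervals of the marked ones. The protein-coding promoters with the start in a water peak had GGGCGG in 70.6% and CCGGAAG in 19.9%, both above the intervals of the 166. They had TGACGTCA in 3.60% and CCAAT in 38.6%, inside those intervals, and TATAAA in 5.51%, below. GGGCGG and CCGGAAG hold CpG or GC-rich letters, so their shares move with base composition. A match describes the letters and is not a bound site.

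tRNA genes stood out for how many of them were marked. tRNA genes are short, are read by RNA polymerase III from promoters inside the gene, and occur in clusters. Of 318 tRNA genes outside the protein-coding windows, 173 (54.4%, 48.8 to 60.0) had an H3K4me3 peak within 2 kb after crotonate and 168 (52.8%, 47.2 to 58.4) in water. Over 17082 noncoding genes and pseudogenes outside the windows, 815 (4.77%) were marked after crotonate and 626 in water, or 3.66%. The lncRNA genes had 444 of 7075 (6.28%) marked after crotonate and 311 of 7075 (4.40%) in water, and the microRNA genes 13.4% after crotonate and 11.7% in water. None of 56 rRNA genes was marked in either list, and 3 counts, taken as the limit that a count of 0 allows, would be a share of 5.36% (exact upper bound 6.38%). Seen from the peaks, 102 of the 789 (12.9%, 10.7 to 15.5) lay within 2 kb of a tRNA gene, against 1.18% of all water H3K4me3 peaks. tRNA genes lie close together, and 55 of the 102 peaks had 2 or more of them within 2 kb, up to 7. The genes are thus not independent of one another, and the intervals for the shares of tRNA genes are too narrow.

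**Figure D2:**
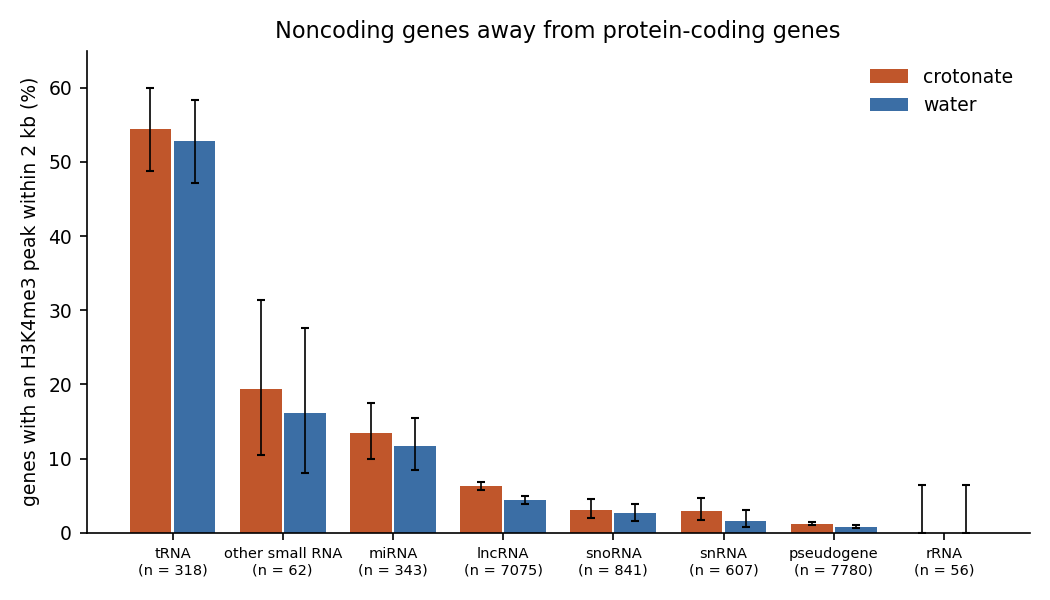
Share of noncoding genes and pseudogenes outside the protein-coding windows with an H3K4me3 peak within 2 kb, by class, after crotonate (orange) and in water (blue), with exact 95% intervals for counting error and the number of genes under each class. tRNA genes stand highest, with 54.4% after crotonate and 52.8% in water, and rRNA genes have 0. The class of other small RNA includes misc_RNA genes, some of them long.

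Each standard amino acid had at least 1 marked tRNA gene, and cysteine had the lowest share. The symbol gives the amino acid and the anticodon, so that n-TDgtc11 is an aspartate tRNA gene with anticodon gtc. All 6 tyrosine genes, 17 of 20 leucine genes and 14 of 15 arginine genes were marked after crotonate, and 6, 17 and 13 of them in water. Of 51 cysteine genes 1 was marked after crotonate and 1 in water. Of these, 48 lie on chromosome 6, where 0 of 48 was marked in either list (6.25% at the limit of 3 counts, exact upper bound 7.40%). The 3 other tRNA genes of chromosome 6 counted here and the 15 on chromosome X were also without a peak. Without the cysteine genes the share was 64.4% (58.4 to 70.2) after crotonate and 62.5% (56.4 to 68.4) in water. tRNA genes have near-identical copies, to which short reads can map in more than 1 place. How such reads were treated is not given in the sources used here, and its part in the missing peaks was not tested.

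**Figure D3:**
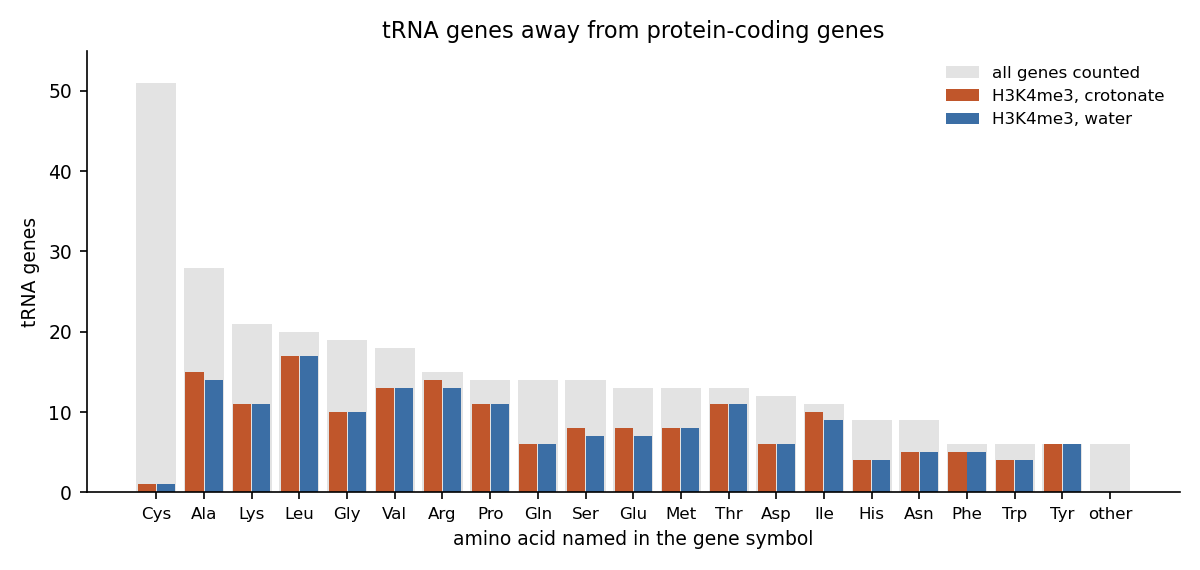
Number of tRNA genes outside the protein-coding windows by the amino acid in the gene symbol (grey), and how many had an H3K4me3 peak within 2 kb after crotonate (orange) and in water (blue). Cysteine has the most genes, 51, of which 1 was marked in each list, while all 6 tyrosine genes were marked in both.

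The tRNA peaks were concentrated on chromosome 13. Of the 102, 47 lay there between positions 21158700 and 23519637. On that chromosome 81 of 101 tRNA genes outside the windows were marked after crotonate and 79 of 101 in water. The peaks near tRNA genes were a median of 1421 bp long, against 730 bp for all 789, with a median −log10 q of 21.1 against 11.8. Of the 166 tRNA genes within 2 kb of a peak, 102 lay wholly inside it (61.4%, 53.6 to 68.9). The summit was a median of 452 bp (quartiles 264 and 937) from the middle of the gene, and 19 genes lay within 150 bp of a summit. Of the 102 peaks 101 were found after crotonate, against 99.3% of all water peaks. The tRNA genes n-TIaat15, n-TSgct4, n-TRtcg1, n-TDgtc14, n-TAtgc5 and n-TEttc8 were marked after crotonate but not in water, and n-TDgtc11 was without a peak after crotonate and had one in water. Of 17 listed small structural RNA genes outside the windows, 7 were marked in both lists and Rnu11 after crotonate only, and the others, among them Rnu6, Rprl1, Rprl2 and Rprl3, in neither list. Over all noncoding genes and pseudogenes outside the windows 4.77% were marked after crotonate and 3.66% in water. Within 2 kb of Rn7sk, whose RNA holds the elongation factor P-TEFb inactive, a peak covered 1.37 kb after crotonate and 0.823 kb in water. The water peak did not overlap Rn7sk and held the start of the lncRNA gene C920006O11Rik. Rn7s2, a gene of the signal recognition particle RNA, had 1.86 kb after crotonate and 0.707 kb in water, and the peaks within 2 kb of the Y RNA genes Rny3 and Rny1 covered 1.41 and 0.882 kb after crotonate and 1.06 and 0.424 kb in water. The water peak near Rny1 did not overlap that gene. Terc, the template RNA of telomerase, which RNA polymerase II reads, had 0.660 kb after crotonate and 0.638 kb in water.

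Of the 789 peaks, 48 had as nearest protein-coding gene 1 of 24 forebrain transcription factor genes out of 102 listed. That is 6.08% (4.52 to 7.99) of the peaks, against 1.47% of all water H3K4me3 peaks. Several genes had more than 1 of the 48, so these peaks are not independent and the interval is too narrow. The rule keeps the peaks away from protein-coding genes, and its part in the higher share was not tested. These peaks lay a median of 7.65 kb from the gene. A noncoding gene lay within 2 kb of 27 of the 48, against 503 of the 789 (63.8%). A lncRNA start lay inside 6 of the 48, against 140 of the 789 (17.7%), so neither was more frequent here. The 6 peaks nearest to Pou3f3, a factor of upper-layer neurons and progenitors, lay 2.90 to 155 kb away and included that of Pantr2, the lncRNA transcribed beside it, with 7.67 kb after crotonate and 6.45 kb in water. The crotonate call at Pantr2 also joined a water peak of 0.703 kb. The peak in Sox2ot, the lncRNA gene around the stem cell factor gene Sox2, covered 7.45 kb after crotonate and 6.44 kb in water. The peak at the start of Sox1ot, beside Sox1, covered 2.34 kb after crotonate and 2.26 kb in water. At the position of the water peak, no H3K27me3 peak overlapped after crotonate and one of 1.31 kb did in water. The whole gene had H3K27me3 within 2 kb in both lists. The lncRNA gene 2610307P16Rik, 62.9 kb from Sox4, had 5.08 kb after crotonate and 4.21 kb in water. Pvt1, 47.3 kb from Myc, had 3.62 kb after crotonate and 2.61 kb in water. Olig1, a factor of the oligodendrocyte lineage, had 5 such peaks with no noncoding gene nearby, 3 of which, 29.1 to 31.9 kb away, were 1 peak of 4.42 kb after crotonate. The 3 peaks near Id2, an inhibitor of differentiation factors, were likewise 1 peak of 2.99 kb after crotonate, against 0.349, 0.352 and 0.827 kb in water. Of the 48 peaks 45 were found after crotonate, against 96.7% of the 789 and 99.3% of all water peaks. Of the 29 with a single partner 27 were wider after crotonate. The share wider was 89.3% for the paired peaks among the 789 and 94.5% for all paired water peaks.

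The nearest protein-coding gene lay a median of 14.4 kb away (quartiles 6.19 and 36.2). It was within 10 kb for 305 peaks, 10 to 100 kb for 428 and over 100 kb for 56. At the edge of the rule, the closest peak outside lay 2003 bp from a gene and the farthest inside 1976 bp, with 67 peaks 2 to 3 kb from a gene span and 79 others at 1 to 2 kb. The nearest genes numbered 619, of which 517 were nearest to 1 peak. Of the 789 peaks, 605 (76.7%, 73.6 to 79.6) had a nearest gene that itself carried H3K4me3 in water. Over all protein-coding genes the share was 57.4% (56.7 to 58.0). The first share counts peaks and the second genes. A gene nearest to several peaks counts more than once in the first, so its interval is too narrow. The next water peak was a median of 14.4 kb away, against 28.7 kb for peaks at protein-coding genes. The peak farthest from a protein-coding gene, at the lncRNA gene 1700019L22Rik on chromosome 8, lay 1393 kb from Tenm3 and had 1.87 kb after crotonate and 1.41 kb in water. It stood on an H3K27me3 peak of 4.71 kb after crotonate and 4.16 kb in water. No annotated gene of any kind lay within 2 kb of 285 peaks. The strongest of them, chr16:17921222-17922861, lay 2.35 kb from Slc25a1, the mitochondrial citrate carrier gene, with 1.96 kb after crotonate and 1.64 kb in water, and the next, 9.87 kb from Larp1, a regulator of ribosomal protein translation, had 1.33 kb after crotonate and 1.28 kb in water. The gene-less peaks were mostly short and weak. The 286 with no noncoding gene nearby had medians of 605.5 bp in length and 8.63 in −log10 q, against 866 bp and 13.9 for the 503 with one.

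After crotonate, 763 of the 789 peaks (96.7%, 95.2 to 97.8) overlapped an H3K4me3 peak, against 99.3% of all water peaks. The 26 without one made up 28.3% of the 92 water peaks absent after crotonate, while the 789 made up 5.97% of the list. The absent peaks were 263 to 936 bp long, with −log10 q from 1.56 to 17.6. The strongest of them, chr7:7188259-7188695, lay 4.70 kb from Zfp418 and was 0.437 kb long, and others lay 4.11 kb from Zic1, a factor of dorsal neural progenitors, and at n-TDgtc11. The peaks between genes were weaker than the others, with a median −log10 q of 11.8 against 39.0 and a median length of 730 bp against 1549 bp, and 502 of them fell in the weakest of 4 equal bins of the list by −log10 q. Within that bin 95.02% (92.7 to 96.8) of the peaks between genes were found after crotonate and 97.6% (97.0 to 98.2) of those at protein-coding genes.

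Peaks between genes were mostly wider after crotonate, as were peaks elsewhere. Of 693 with a single partner, 619 (89.3%, 86.8 to 91.5) were wider after crotonate, against 94.5% of all paired water peaks. The median length was 1101 bp after crotonate and 744 bp in water. The median ratio of crotonate to water length was 1.31 (quartiles 1.12 and 1.69), against 1.24 for peaks at protein-coding genes, and 248 pairs (35.8%, 32.2 to 39.5) were at least 1.5 times as wide, against 23.5% of all pairs. Weak peaks had larger ratios in both groups. In the weakest bin the median ratio was 1.46 between genes and 1.56 at protein-coding genes, in the second 1.19 and 1.25, in the third 1.19 and 1.21 and in the strongest 1.19 and 1.18. Among peaks of similar strength the ratio between genes was thus lower in 3 of the 4 bins. In the second bin 84.3% (77.6 to 89.7) of the pairs between genes were wider, against 95.8% (94.99 to 96.5) at protein-coding genes. The pairs near tRNA genes included a smaller share that were wider, 67 of 87 (77.0%, 66.8 to 85.4), with a median ratio of 1.17. The lowest ratio, 0.583, was that of the peak at the start of Gm12216 on chromosome 11, with 0.426 kb after crotonate and 0.731 kb in water. Another 68 peaks were joined with a neighbouring water peak in 35 crotonate peaks. Joining was not counted over all water peaks, but 87.8% of the 789 had a single partner, against 91.5% of all water peaks. A crotonate peak reached within 2 kb of a protein-coding gene for 26 peaks, among them peaks near Nes, Ccnd2 and Cdkn1b. Most of these already lay 2 to 3 kb from the gene in water, at the edge of the rule. With unknown depth, longer peaks from the mark and from deeper sequencing cannot be told apart.

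**Figure D4:**
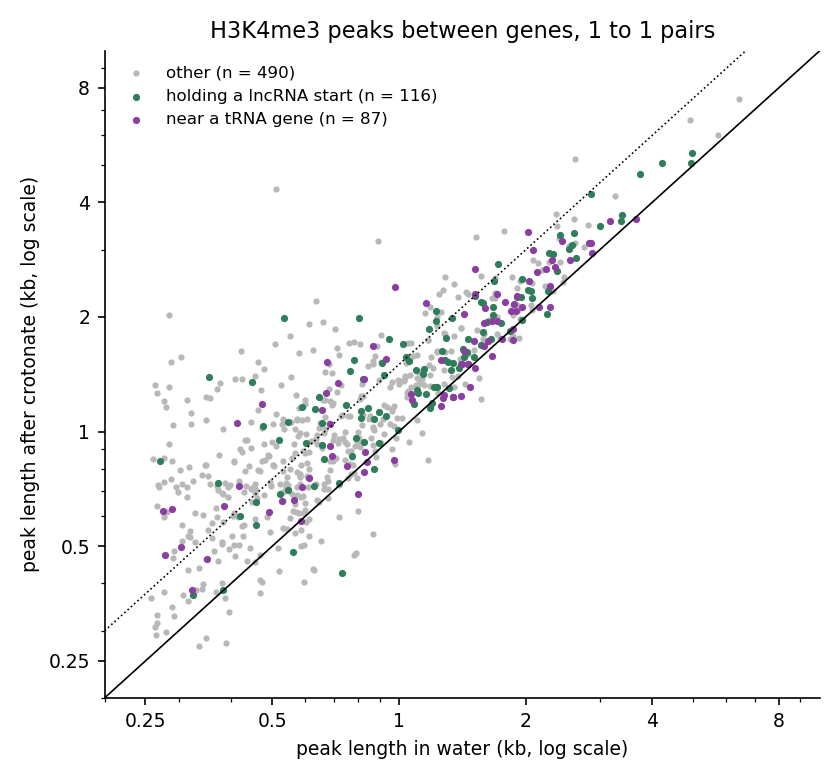
Length after crotonate against length in water, both in kb on log scales, for the 693 peaks between genes with a single partner, with those near tRNA genes (87) and those holding a lncRNA start (116 not near a tRNA gene) coloured. The solid line marks equal length and the dotted line a ratio of 1.5, and 619 points lie above the solid line.

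H3K27me3 was called under 47 of the peaks in both lists, under 13 after crotonate only and under 10 in water only. The pooled shares were close to those of the whole list, but the weakest peaks differed by position. In the weakest bin 8.37% (6.10 to 11.1) of the peaks between genes lay on H3K27me3 in water, against 19.8% (18.4 to 21.4) of the peaks at protein-coding genes. In the second bin the shares were 7.60% (4.11 to 12.6) and 6.75% (5.90 to 7.69). The strongest H3K27me3 peak under one of them, 5.12 kb from Skor1, a transcriptional corepressor gene of the nervous system, covered 23.7 kb after crotonate and 23.3 kb in water. The H3K4me3 peak inside it covered 3.17 kb after crotonate and 0.891 kb in water. Near Sp8, a factor of interneuron progenitors, an H3K4me3 peak of 1.12 kb after crotonate and 0.320 kb in water lay on H3K27me3 of 16.5 kb after crotonate and 16.0 kb in water. A pair of peaks at the tRNA gene n-TQctg1 lay on 1 H3K27me3 peak of 23.1 kb after crotonate and 21.8 kb in water. The peaks with H3K27me3 after crotonate only included that of the proline tRNA genes n-TPagg7 and n-TPtgg8, 17.9 kb from Wnt11, with an H3K27me3 peak of 3.76 kb. The crotonate H3K27me3 list was the longer one, and what its depth adds to these calls was not tested.

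**Figure D5:**
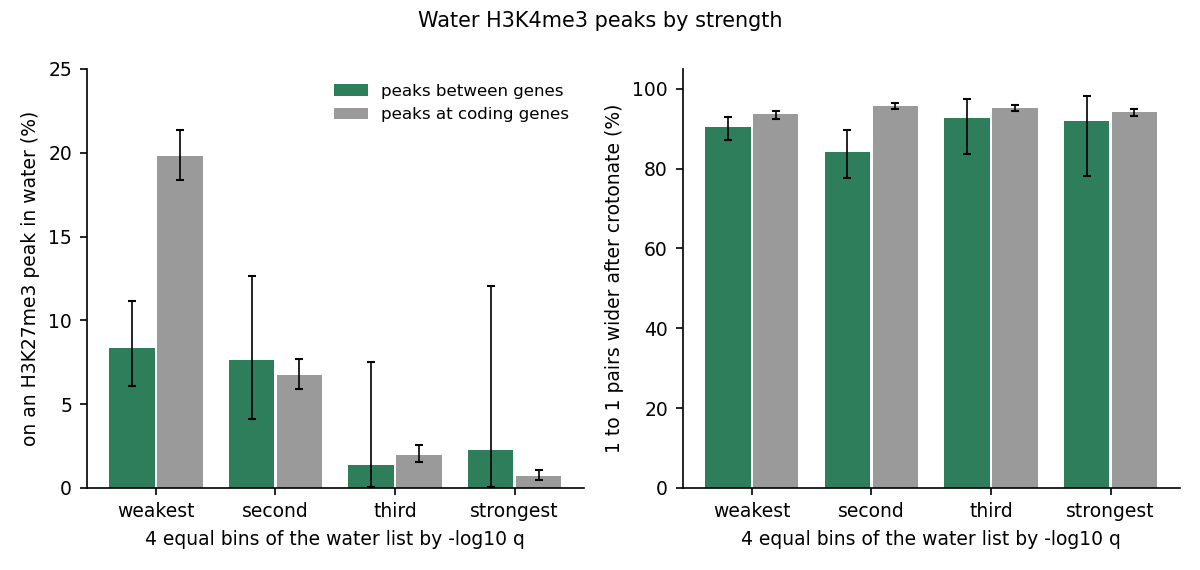
Water H3K4me3 peaks in 4 equal bins of the list by −log10 q, with peaks between genes in green and peaks at protein-coding genes in grey. The left panel gives the share on an H3K27me3 peak in water and the right panel the share of 1 to 1 pairs wider after crotonate, with exact 95% intervals, and the gap in H3K27me3 is in the weakest bin, 8.37% against 19.8%.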

How the data were processed

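CUT&Tag peak lists of 4 libraries, 1 per mark and treatment, were used as deposited. The lists give 1-based positions, the pileup signal at the summit, −log10 of p and q, and fold enrichment as a linear ratio, per the file headers. Those values are the authors' own and served here for description, ranks and filters inside a single list. The submitters' processing notes name Bowtie2 2.4.1, SAMtools 1.10, Picard 2.22.0, MACS2 2.2.7.1 and the build GRCm38. Their settings, duplicate handling and background library were not given in the sources used here. Every deposited peak had q under 0.05.

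Genes were 21887 protein-coding and 27358 noncoding genes and pseudogenes of a RefSeq table of GRCm38.p6 with spans and no strand. Antisense RNA genes were counted as lncRNA, and misc_RNA genes, some of them long, as other small RNA. Strands and starts came from RefSeq promoter sequences of 300 bases. A peak was near a gene within 2 kb of its span, was found after crotonate when it overlapped a crotonate peak by at least 1 bp, and was paired when each overlapped 1 peak of the other list. H3K27me3 in either list was called under a peak when it overlapped the water position of that H3K4me3 peak by at least 1 bp. Work was done with scipy 1.17.1, pandas 2.3.3, numpy 2.4.6 and matplotlib 3.10.9 under Python 3.11.15, and the interval code was tested on simulated data. Summit sequence was not analysed here, since the table holds promoters alone.

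The members, 6 gene lists with 290 genes in all and the rules were chosen with earlier results of these data known. Named peaks were the 10 strongest near noncoding genes, the 10 strongest near none, the 5 longest, the 10 strongest absent after crotonate, up to 6 per noncoding list and 6 near forebrain factors, the 5 with the highest and 5 with the lowest length ratio, 5 with H3K27me3 after crotonate only and 5 with it in water, and the 5 farthest from protein-coding genes. Other microRNA, tRNA and forebrain factor peaks that the text names were chosen after their values were seen. Some items that these rules name are not reported here. Alternatives changed the windows, the overlap and the peak threshold.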

Additional observations from a re-analysis of the deposited data

How the results depend on the processing

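Of 27 alternatives, 17 left their result within counting error (for counts, within 1.5 times) and 10 moved it, and the cause was not tested except where the setting itself takes peaks away. The number of peaks between genes, 789, was 484 with 10 kb either side of protein-coding genes and 116 with the median −log10 q as a minimum. The share near a noncoding gene, 63.8%, was 54.5% with direct overlap, against 17.7% of all water peaks, and 76.6% with 10 kb either side of noncoding genes. It was 58.3% with no window around protein-coding genes and 58.4% without the peaks near tRNA genes, an alternative chosen after seeing the data. The share found after crotonate, 96.7%, was 76.0% with reciprocal overlap of 50%, against 86.4% of all water peaks, 85.3% with lists of equal length, against 97.0%, and 92.3% with a fold enrichment of at least 5 in both lists. The share of tRNA genes marked in water, 52.8%, was 62.5% without cysteine genes, also chosen after seeing the data. The share wider after crotonate stayed between 87.5% and 89.8% under its 3 alternatives. Fragment totals are unknown, and the part of depth in which weak peaks were called was not tested. No paired analysis was possible because each mark and treatment had 1 library.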

Other observations

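Outside the protein-coding windows the crotonate H3K4me3 list held 1273 peaks, of which 567 overlapped no water peak. Of the 17082 noncoding genes and pseudogenes there, 195 were marked by H3K4me3 after crotonate but not in water and 6 in water but not after crotonate. Among the gains were 137 lncRNA genes, 32 pseudogenes, 8 snRNA genes, 6 tRNA genes and 6 microRNA genes. H3K27me3 lay within 2 kb of 969 of these genes after crotonate and 519 in water, with 15879 and 7643 peaks in the lists.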
